A study of Mus musculus with 2 samples.

Results

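The genes of the cytosolic ribosomal proteins were compared between 2 libraries of regulatory T cells (Tregs) sorted from mouse adipose tissue. Members were the rows of the deposited count table whose gene type was protein-coding and whose symbol follows the Rpl and Rps pattern, Rpsa and the stalk genes Rplp0, Rplp1 and Rplp2 included, without the Rps6k kinases, Rps19bp1 and symbols containing -ps. There were 81 such genes among 10219 listed genes, 48 of the large subunit and 33 of the small subunit. The mice were of the C57BL/6 strain and 4 months old. The control genotype was Foxp3Cre, and the knockout genotype was Hif1afl/fl;Foxp3Cre, where Cre, made under Foxp3, the gene of the defining Treg transcription factor, recombines floxed Hif1a, which encodes the HIF-1 subunit regulated by oxygen. Both genotypes carry the Foxp3Cre allele. Each genotype has 1 library. No value therefore has an error between animals, no difference was tested, and each interval below covers counting error only. The number of mice pooled, the floxed stretch of Hif1a and the sort markers are absent from the labels.

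Each ribosome joins a large subunit, which forms peptide bonds, to a small subunit, which reads the mRNA. Each subunit carries a fixed set of proteins around its ribosomal RNA, and the mRNAs of these proteins are among the most abundant of any cell. In mammals they begin with a run of pyrimidines, the 5′ terminal oligopyrimidine (TOP) tract, through which the kinase complex mTORC1 and the protein LARP1 control their translation. T cells enlarge this machinery when they leave quiescence.

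Counts over listed genes summed to 11337415 in the knockout library against 13472317 in the control. Hif1a itself had 8958 knockout and 16927 control counts, or 780 and 1273 CPM (counts per 1000000, scaled between libraries), a 1.63-fold lower level (95% counting interval 1.59 to 1.68). Of 11 Treg markers all 11 were listed and all were lower in the knockout library, against 49.6% of all listed genes, Foxp3 by 2.24-fold. Of 13 pan T cell markers, 12 were higher there, against 50.4% of all listed genes, with a median log2 ratio of 0.36. Of 17 macrophage markers 7 were listed; their summed level was 3912 CPM in the knockout library against 253 CPM in the control, and each of the 7 was at least 2-fold higher. The other 10 macrophage markers, among them the defining genes Adgre1 and Csf1r, were not among the listed genes. All 7 naive T cell markers were also at least 2-fold higher, against 11.4% of all listed genes. Of 8 dendritic cell markers 7 were listed; 6 were at least 2-fold higher and Xcr1 was lower, and their summed level was 2389 CPM in the knockout library against 741 CPM in the control. Of 5 B cell markers 2 were listed, with Ighm higher and Cd79b lower, and of 8 adipocyte and stromal markers 2 were listed, Dcn and Lipe, both higher. These cell type markers move with every difference described here, and their part in it was not tested; fewer cells of a type and less RNA per cell cannot be told apart in such bulk libraries.

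The annotated 5′ ends of members from both ends of the comparison differ in the pyrimidine run near the start. A TOP tract would begin at the start itself, whereas the runs marked below were searched for on both sides of it. Where a member had several windows, the one with the longest run is shown. Each line gives 30 bases before and 20 bases from a transcription start annotated by RefSeq on GRCm38.p6, with the longest pyrimidine run within 20 bases of that start in capitals, the first where runs tie; Rps2, Rpl36al, Rpl38 and Rps26 were among the 5 members with the lowest ratio of knockout to control, and Rps24, Rpl9, Rps27 and Rps27rt were among the 7 with the highest.
Rps2 (chr17:24720033-24720082, + strand): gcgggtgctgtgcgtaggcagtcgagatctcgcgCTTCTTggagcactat
Rpl36al (chr12:69184048-69184097, - strand): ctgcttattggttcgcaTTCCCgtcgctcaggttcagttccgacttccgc
Rpl38 (chr11:114668550-114668599, + strand): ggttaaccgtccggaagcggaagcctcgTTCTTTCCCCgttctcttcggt
Rps26 (chr10:128626487-128626536, - strand): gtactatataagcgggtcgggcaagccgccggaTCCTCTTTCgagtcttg
Rps24 (chr14:24490648-24490697, + strand): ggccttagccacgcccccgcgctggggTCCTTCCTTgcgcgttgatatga
Rpl9 (chr5:65391412-65391461, - strand): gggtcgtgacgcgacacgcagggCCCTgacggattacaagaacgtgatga
Rps27 (chr3:90213629-90213678, - strand): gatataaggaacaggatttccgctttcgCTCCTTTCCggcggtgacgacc
Rps27rt (chr9:114982720-114982769, - strand): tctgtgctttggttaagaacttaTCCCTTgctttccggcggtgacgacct

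The marked run is only 4 to 6 bases long in Rpl9, Rpl36al, Rps2 and Rps27rt, so these windows show no long tract at the annotated start. Rpl36al and Rps27rt each hold another run as long as the marked one, and that of Rps27rt begins at the annotated start. The marked runs of Rpl36al, Rpl9 and Rps27rt lie wholly before the annotated start. Long runs stood at both ends of the comparison: 10 bases in Rpl38, whose ratio was among the lowest, and 9 bases in Rps27, whose ratio was among the highest. Windows from 250 bases before to 50 bases after the start were found for 61 of the 81 members, 72 windows in all. A run of at least 8 pyrimidines within 20 bases of the start was found in 31 of these windows, or 43.1%, against 5272 of the 32851 windows of all genes. CCGGAAG, the core bound by ETS family factors, was found on either strand in 36.1% of members' windows and 8.86% of all windows. AAGATGG, the core of the YY1 site, was found on either strand in 16.7% against 6.34%, and GGGCGG, the SP1 box, in 62.5% against 35.7%. The presence of a pyrimidine run did not separate the members by ratio: the 30 members with one had a median log2 ratio of -0.53 and the 31 without had -0.50. The 25 members with CCGGAAG and the 36 without had medians of -0.50 and -0.51. A match describes letters in a window and not a used site, and the annotated starts may differ from those used in these cells.

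Ribosomal protein transcripts were lower in the knockout library as a group, by a modest amount that most members shared. They took 5.25% of the listed counts in the knockout library (exact binomial interval 5.24 to 5.27) and 7.04% in the control library (7.03 to 7.06). Levels were lower in the knockout library for 77 of the 81 members, or 95.1%, whereas 49.6% of all listed genes were lower, and higher for 4 members, against 50.4% of all listed genes. The median log2 ratio of the members was -0.50, which is 1.41-fold lower, with quartiles of -0.70 and -0.30. Over all listed genes the median was 0.005 and the quartiles were -0.43 and 0.46. The counting interval of the fold lay wholly below 1 for 76 members, against 37.0% of all listed genes, and wholly above 1 for 3 members, against 37.1%.

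Few members differed by a large fold. Only 6 of 81 were at least 2-fold lower, 7.41% of the members, close to the 8.78% of all listed genes, and 0 were at least 2-fold higher, against 11.4% of all listed genes. At 1.5-fold, 31 members were lower, against 19.0% of all listed genes, and 2 were higher, against 20.7%. The share of members at least 2-fold lower was thus near that of all listed genes, while 2-fold higher levels, found in the whole table, were found in no member. This nearness depends on the scaling. When the libraries were instead scaled on pan T cell markers, 25 of 81 members were at least 2-fold lower, against 17.0% of all listed genes. The members' log2 ratios, scaled as reported, had an SD of 0.39, against 0.96 across all listed genes, many of which rest on fewer counts.

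**Figure D1:**
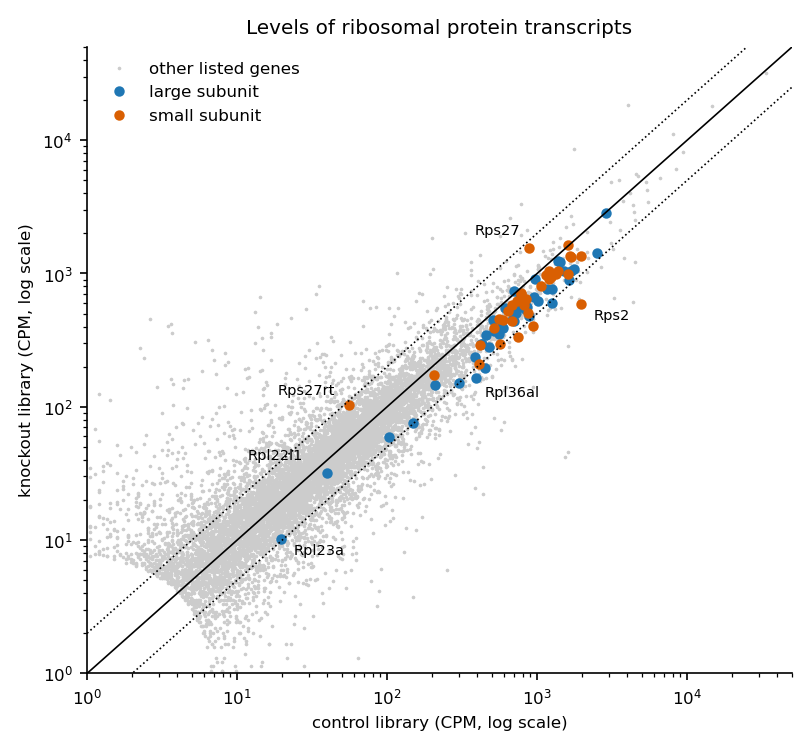
Level of each listed gene in the control (x axis) and knockout (y axis) library in CPM on log axes; the solid line marks equal levels and the dotted lines a 2-fold difference. Most large subunit (blue) and small subunit (orange) genes lie just below the line of equal levels, Rps27 and Rps27rt lie above it, and Rps2 lies below the 2-fold line.

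The order of the members by level was largely kept between the libraries. Between libraries, Pearson's r of log2 CPM over the 81 genes was 0.951 and Spearman's rho 0.925, as a description across genes that share the same 2 libraries. Among the 100 genes with the most counts, 23 were members in the control library and 16 in the knockout library. Rplp0, the base of the stalk and among the most abundant members, stood at 2525 CPM in the control library and 1432 CPM in the knockout library, which is 1.76-fold lower (1.73 to 1.796). Per kilobase of 1 annotated transcript, Rpl41, which encodes the smallest ribosomal protein, led in the control library at 3216 CPM per kilobase, with 2000 CPM per kilobase in the knockout library. In the knockout library Rps27 led on that scale at 4539 CPM per kilobase, from 2551 in the control library. Rpl23a was the lowest, with 118 and 260 counts, or 18.3 and 34.9 CPM per kilobase. Its copy Rpl23a-ps3 had 81 counts in the control library, 31.2% of the count of the gene. The annotated transcripts of both share an identical stretch of 352 bases, longer than the 150 bp reads. The count of Rpl23a therefore depends on how shared reads were counted.

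Large subunit genes were slightly lower than small subunit genes. The median log2 ratio was -0.55 for the 48 large subunit genes (quartiles -0.71 and -0.43) and -0.40 for the 33 small subunit genes (quartiles -0.54 and -0.24), a difference of -0.14. This difference is smaller than the spread within either subunit, whose SDs were 0.29 and 0.49, and the range of the large subunit, -1.25 to 0.06, lay within that of the small subunit, -1.72 to 0.89. Of the large subunit genes, 47 were lower and 1, Rpl17, was higher; of the small subunit genes, 30 were lower and 3, Rps14, Rps27 and Rps27rt, were higher. At 1.5-fold, 23 large subunit genes (47.9%) and 8 small subunit genes (24.2%) were lower, against 19.0% of all listed genes. Among the 20 members with the lowest ratios 14 were of the large subunit, and among the 20 with the highest 9 were.

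Summed counts showed the same order. The large subunit genes held 55.5% of all ribosomal protein counts in the control library (55.4 to 55.6) and 53.8% in the knockout library (53.7 to 54.0). Without Rps27 and Rps27rt these shares were 56.2% and 55.6%, a smaller difference. Without Rps2 as well they were 57.8% and 56.3%, so the size of the difference depends on single members at both ends of the comparison.

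**Figure D2:**
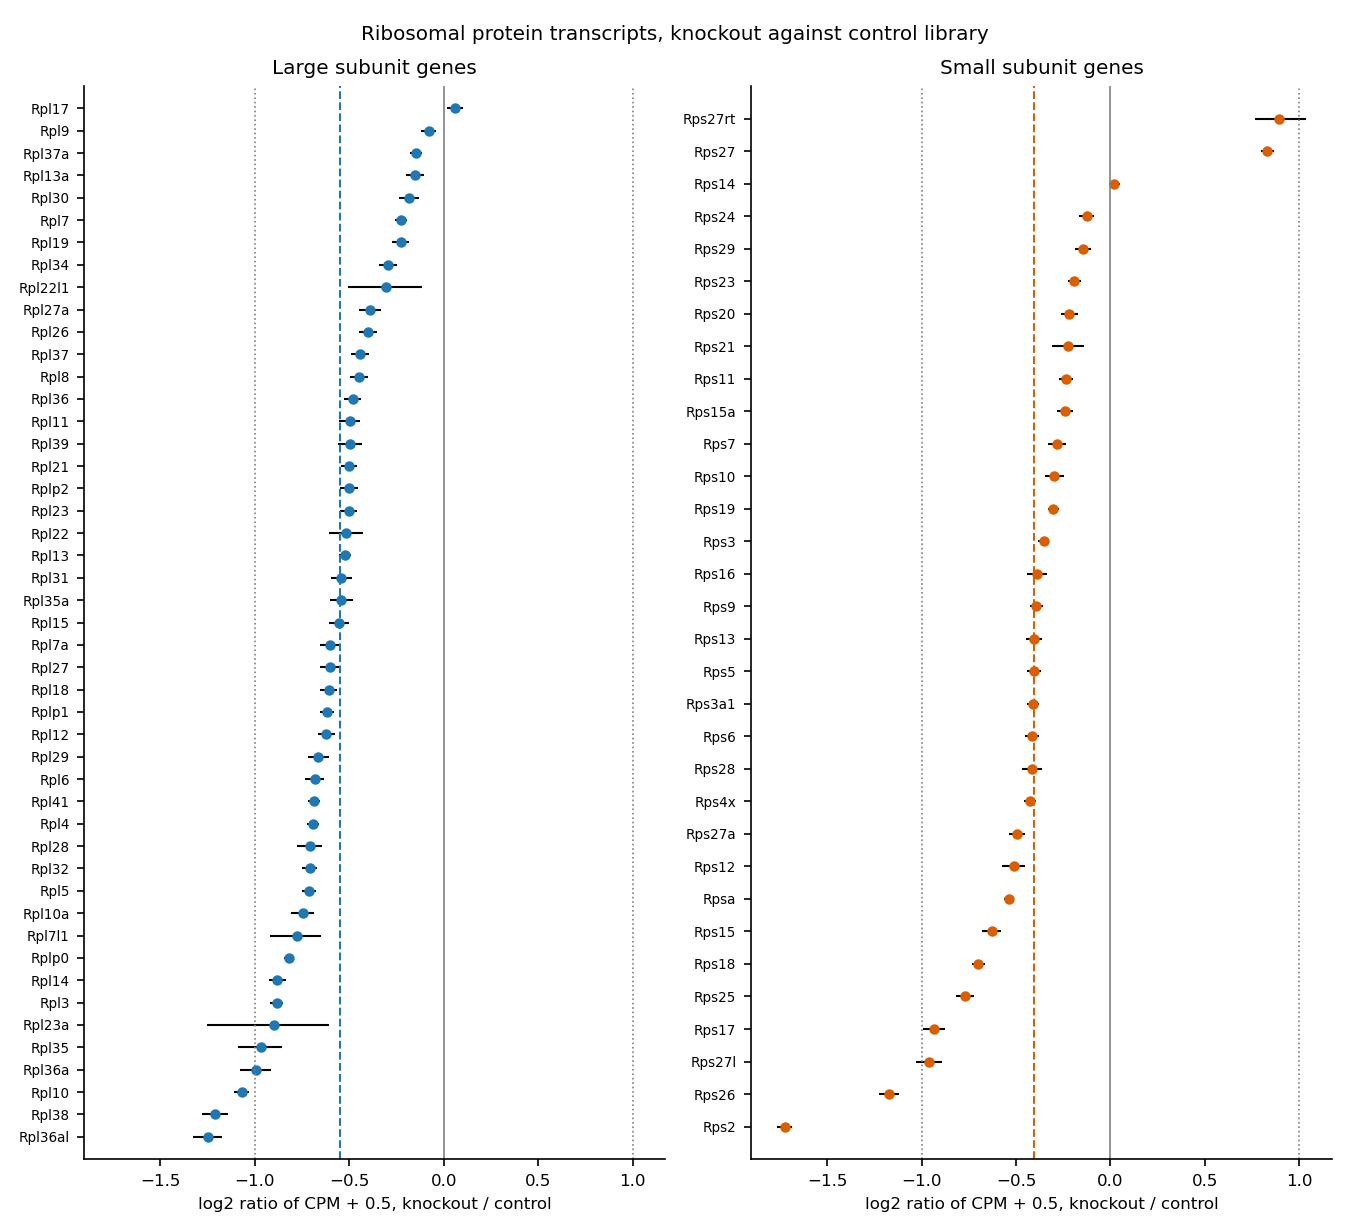
Log2 ratio of knockout over control for the large subunit (left) and small subunit (right) genes reported here, with its 95% counting interval as a bar; the dashed line is the median of the whole subunit, the solid grey line marks no difference and the dotted lines 2-fold. The medians are -0.55 and -0.40, and the small subunit has both the lowest gene, Rps2, and the highest, Rps27 and Rps27rt.

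The small subunit gene Rps2 (ENSMUSG00000044533) had the lowest ratio of all members. RPS2 is a universally conserved protein at the mRNA entry side of the small subunit. It had 6804 counts (592 CPM) in the knockout library against 26018 counts (1957 CPM) in the control, and was 3.31-fold lower (3.22 to 3.395). In the control library it ranked 4 among members by counts and in the knockout library 34. Its share of all ribosomal protein counts was 2.74% in the control library and 1.14% in the knockout.

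Other members at least 2-fold lower came from both subunits. Rps26, which encodes a protein at the mRNA exit channel and is mutated in some human patients with Diamond-Blackfan anemia, stood at 333 and 751 CPM, 2.25-fold lower (2.17 to 2.34). Rpl38, a large subunit gene known from mouse mutants with changed skeletal patterning, stood at 195 and 452 CPM, 2.32-fold lower (2.21 to 2.43). Rps2, Rps26 and Rpl38 each rested on over 2000 counts in both libraries, so counting error was small beside the difference.

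Rpl10, whose protein is among the last to join the large subunit, stood at 596 CPM in the knockout library against 1252 CPM in the control, 2.10-fold lower (2.04 to 2.16). Rpl36al stood at 164 and 391 CPM, 2.38-fold lower (2.26 to 2.51). Its paralog Rpl36a fell just outside the 2-fold rule, with 150 and 300.5 CPM and a fold of 1.998 (1.89 to 2.12), followed by Rpl35 at 75.6 and 149 CPM, 1.97-fold lower (1.81 to 2.13). The 2-fold rule thus separates neighbours whose intervals overlap.

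Rps27 and its copy Rps27rt were the only members whose knockout level was higher by 1.5-fold or more. With pan T cell scaling their log2 ratios were 0.47 and 0.54 in place of 0.83 and 0.89, still higher but under 1.5-fold. RPS27, also called metallopanstimulin, is a zinc-binding small subunit protein. Rps27 (ENSMUSG00000090733) had 17992 counts (1566 CPM) in the knockout library against 11697 counts (880 CPM) in the control, 1.78-fold higher (1.74 to 1.82). It ranked 30 among members by counts in the control library and 3 in the knockout library, and its share of all ribosomal protein counts was 1.23% and 3.02%. Rps27rt (ENSMUSG00000050621), annotated as a retrogene, had 1186 counts (103 CPM) in the knockout library against 736 counts (55.4 CPM) in the control, 1.86-fold higher (1.70 to 2.05). The annotated transcripts of both share an unbroken identical stretch of 341 bases, longer than the 150 bp reads, so the counts of Rps27rt may hold reads of Rps27. The ratio of Rps27 to Rps27rt counts was 15.9 in the control library and 15.2 in the knockout.

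The paralog Rps27l differed in the opposite direction from Rps27. Rps27l encodes a protein closely related to RPS27 and is known as a target of p53. It had 2402 counts (209 CPM) in the knockout library against 5413 counts (407 CPM) in the control, 1.95-fold lower (1.86 to 2.05). Their longest shared stretch was 11 bases, so their reads can be told apart. The ratio of Rps27 to Rps27l counts was therefore 2.16 in the control library and 7.49 in the knockout, a change of 1.79 on the log2 scale. Among the pairs with both genes listed this was the largest change. The ratio of Rpl7 to Rpl7l1, a nucleolar relative of Rpl7, was 13.8 in the control library and 20.4 in the knockout. For Rpl36a to Rpl36al it was 0.769 and 0.917. For Rpl22 to Rpl22l1, a pair whose roles differ in T cell development in mice, it was 5.23 and 4.53; Rpl22l1, with 367 and 526 counts, was 1.24-fold lower (1.08 to 1.42). The paralogs Rpl3l, Rpl39l and Rpl10l were not among the listed genes, and Rps4l is listed as a pseudogene and is not a member.

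The other 2 members with higher levels in the knockout library differed little. Rps14, a universally conserved small subunit protein gene, stood at 1629 CPM in the knockout library against 1607 CPM in the control, with a fold of 1.01 (0.994 to 1.03). Rpl17, which lies at the exit of the peptide tunnel, stood at 737 and 706 CPM, with a fold of 1.04 (1.01 to 1.07). Both changed sign, to log2 ratios of -0.34 and -0.30, when the libraries were scaled on pan T cell markers.

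By place in the ribosome, the members' groups had similar medians. The stalk, which recruits translation factors, consists of Rplp0, Rplp1 and Rplp2; all 3 were lower, by 1.76-fold, 1.54-fold (1.496 to 1.58) and 1.42-fold (1.37 to 1.46). Rplp1 stood at 763 CPM in the knockout library against 1172 CPM in the control, and Rplp2 at 508 and 718 CPM. Rpl5 and Rpl11 form the particle with 5S rRNA that also binds the p53 regulator Mdm2. They were 1.64-fold (1.598 to 1.68) and 1.41-fold (1.36 to 1.47) lower. Of 8 genes around the exit of the peptide tunnel, 7 were lower, against 49.6% of all listed genes, with a median log2 ratio of -0.51. The 33 universally conserved proteins had a median of -0.41, and the 43 others, paralogs and Rps27rt left out, had -0.51. Within subunits the medians were closer, at -0.56 (conserved) and -0.54 (others) for the large subunit. For the small subunit they were -0.39 and -0.42. Of the 18 genes mutated in human Diamond-Blackfan anemia, 17 were lower, against 49.6% of all listed genes, and Rps27 was higher. Their median was -0.52, beside -0.50 for the other 63 members. Each of these medians lay between the quartiles of all members, -0.70 and -0.30.

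Transcript length, GC content and level were weakly related to the ratio among members. Over the 81 members, Spearman's rho of the log2 ratio was -0.003 with transcript length, -0.16 with GC content and 0.26 with mean level, as descriptions across genes of the same 2 libraries. Members were short, with a median transcript of 774 bases against 2782.5 bases over the listed genes, and over all listed genes with a length rho with length was 0.16.

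**Figure D3:**
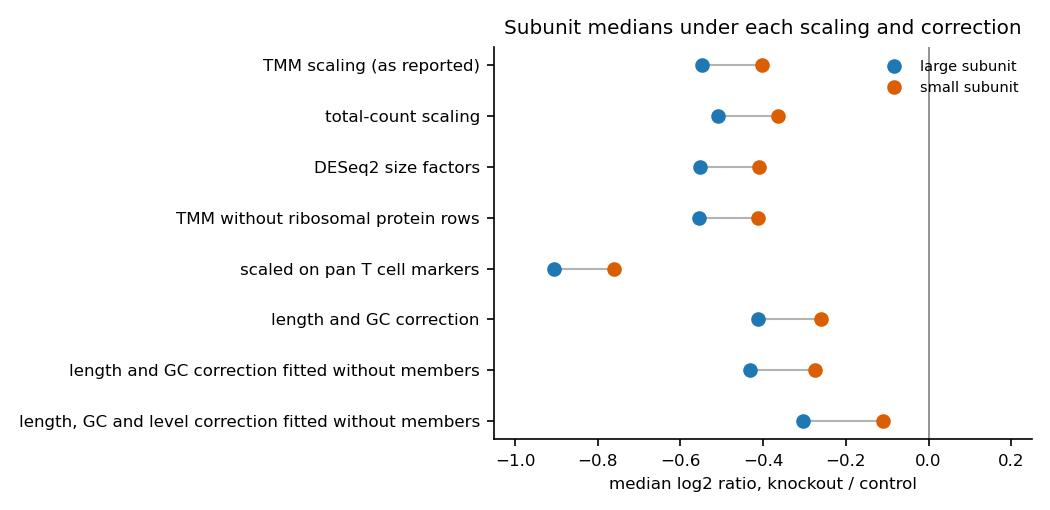
Median log2 ratio of knockout over control of the large subunit (blue) and small subunit (orange) genes under TMM scaling, as reported, and under 7 other scalings or corrections. All medians are below 0 and the large subunit is the lower of the 2 in each, between -0.90 with scaling on pan T cell markers and -0.30 with a correction for length, GC content and level. Scalings move both subunits alike, so only the corrections could have altered their order.

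The shared direction held under each scaling tried, but its size did not. Scaling on pan T cell markers moved the median of all listed genes by -0.35 and the median of the members to -0.86. Correcting for the length and GC content of transcripts, fitted over all listed genes, brought the members' median to -0.36, and one for length, GC content and level, fitted without the members, to -0.20. In these settings the difference between large and small subunit medians was -0.14, -0.15 and -0.19. The pan T cell scaling moves all members alike, so it could not alter this difference. The lower direction was shared by fewer members after the corrections. With the length and GC correction 73 of the 81 members were lower, in place of 77, against 5071 of the 10200 genes corrected. With level added, further members were above 0, among them Rps24 at a log2 ratio of 0.11.

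Many ribosomal protein genes have processed copies in the genome, and their rows followed their parents. The table has 32 rows named as copies of 28 members (symbols with -ps), 3 of them listed as protein-coding, with 28 to 465 counts in the knockout library and 51 to 585 in the control. Of these copies 23 were lower, against 49.6% of all listed genes, and 9 higher, with a median log2 ratio of -0.46. Of the 32 copies, 25 had the sign of the parent they are named after. As 77 of the 81 members were lower, a match in sign mostly restates that a copy was lower. Across the 32 pairs, Pearson's r between the log2 ratios of copy and parent was 0.790 and Spearman's rho 0.801. Of the 32 copies, 27 share an identical stretch of at least 150 bases with the parent's annotated transcript, so reads of the parent may be counted in them.

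Single copies show both patterns. Rps2-ps10, with 39 counts in the knockout library against 148 in the control, had a log2 ratio of -1.58, near the -1.72 of Rps2. Rps10-ps2, with 82 and 51 counts, had 0.82, away from the -0.30 of Rps10. The copies are not independent evidence about the members.

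**Figure D4:**
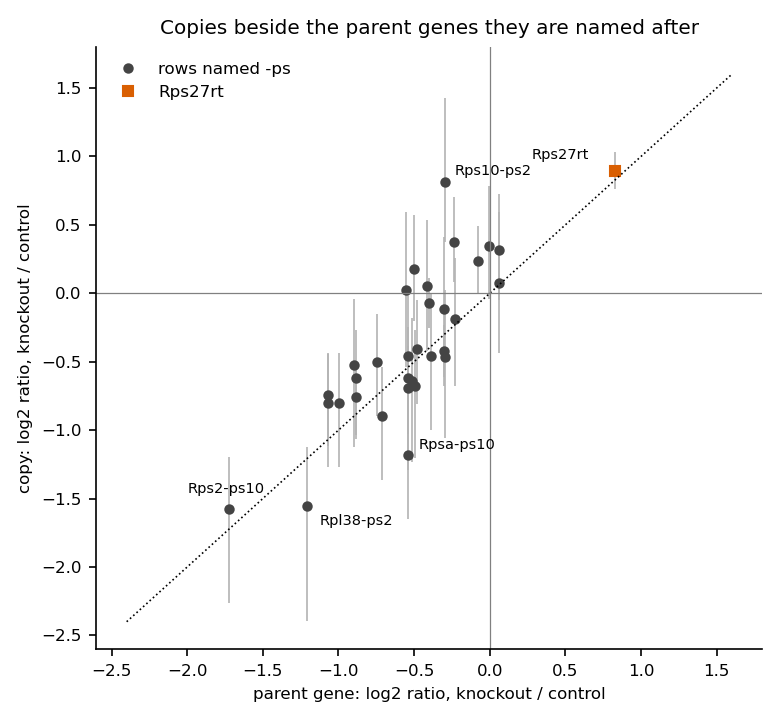
Log2 ratio of knockout over control for 32 rows named -ps (circles) and Rps27rt (square) against that of the parent gene they are named after; bars are 95% counting intervals of the copy, and the dotted line marks equal ratios. Copies of members with low ratios, such as Rps2-ps10, have low ratios too, and Rps10-ps2 lies farthest above the line.

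Ribosomal proteins and partners that carry other names were mostly lower as well. Of 8 such genes 7 were listed. Of these, 6 were lower, against 49.6% of all listed genes, and Fau was higher, with a median log2 ratio of -0.64. Gnb2l1, which encodes the small subunit protein RACK1, stood at 597 CPM in the knockout library against 1006 CPM in the control, 1.69-fold lower (1.64 to 1.74). Fau, whose product is a ubiquitin-like protein fused to a small subunit protein, stood at 523 and 475 CPM, with a counting interval of the fold from 1.06 to 1.14; with pan T cell scaling its log2 ratio was -0.22 in place of 0.14. Abce1, the ribosome recycling factor, was 2.18-fold lower (1.99 to 2.41).

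Genes that escort and assemble ribosomal proteins had a lower median than the ribosomal proteins themselves. All 11 listed genes of 12 were lower, 6 of them at least 2-fold, with a median log2 ratio of -0.99. Over all listed genes, 49.6% were lower and 8.78% at least 2-fold lower. Grwd1, whose product is a chaperone of RPL3, stood at 6.35 CPM in the knockout library against 32.1 CPM in the control, 5.06-fold lower (3.94 to 6.57). Ltv1, a small subunit assembly factor, was 3.37-fold lower (2.92 to 3.91), and Rpf2, which helps place the 5S particle, was 3.33-fold lower (2.95 to 3.77). At the other end, Aamp had a log2 ratio of -0.13.

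Other mRNAs with a TOP tract were mostly lower too. Of 15, 13 were lower and 2 higher, with a median log2 ratio of -0.45, and 3 were at least 2-fold lower. The shares over all listed genes were 49.6% lower and 8.78% at least 2-fold lower, and a list of 15 genes is short. Hnrnpa1, an RNA-binding protein gene, and Npm1, the nucleolar chaperone nucleophosmin, had log2 ratios of -1.33 and -1.14. Eef1a1, the elongation factor that delivers tRNA, was 1.53-fold lower (1.51 to 1.55). Eif3f, a subunit of an initiation factor, and Tpt1 were 1.53-fold (1.43 to 1.65) and 1.32-fold (1.29 to 1.34) higher, and with pan T cell scaling their log2 ratios were 0.26 and 0.04.

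The regulators of TOP mRNA translation had a median near that of all genes. Of 12 mTORC1 and TOP regulators 7 were lower, near the 49.6% of all listed genes, and 5 higher, with a median log2 ratio of -0.12. Eif4ebp1, a translation repressor acting on the cap-binding protein, was 4.18-fold lower (3.90 to 4.48), at 87.8 CPM in the knockout library against 367 CPM in the control. Its relative Eif4ebp2 was 2.24-fold higher (1.79 to 2.81), from 232 and 120 counts. Mtor and Larp1 had log2 ratios of -0.20 and -0.18. These are transcript levels and give no measure of mTORC1 activity or of translation.

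The mitochondrial ribosomal proteins, which form a separate ribosome in the mitochondrion, had the same median. Of 76 listed genes 68 were lower, against 49.6% of all listed genes, and 8 higher. Their median log2 ratio was -0.50, beside -0.50 for the 81 cytosolic members. Their quartiles were wider, at -0.81 and -0.22, on lower counts. Mrps28 and Mrps18b were the lowest at log2 ratios of -2.51 and -1.73, and Mrpl9 the highest at 0.27. Their large and small subunit medians were -0.53 and -0.49. A lower level in the knockout library was thus shared by both sets of ribosomal protein genes.

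**Figure D5:**
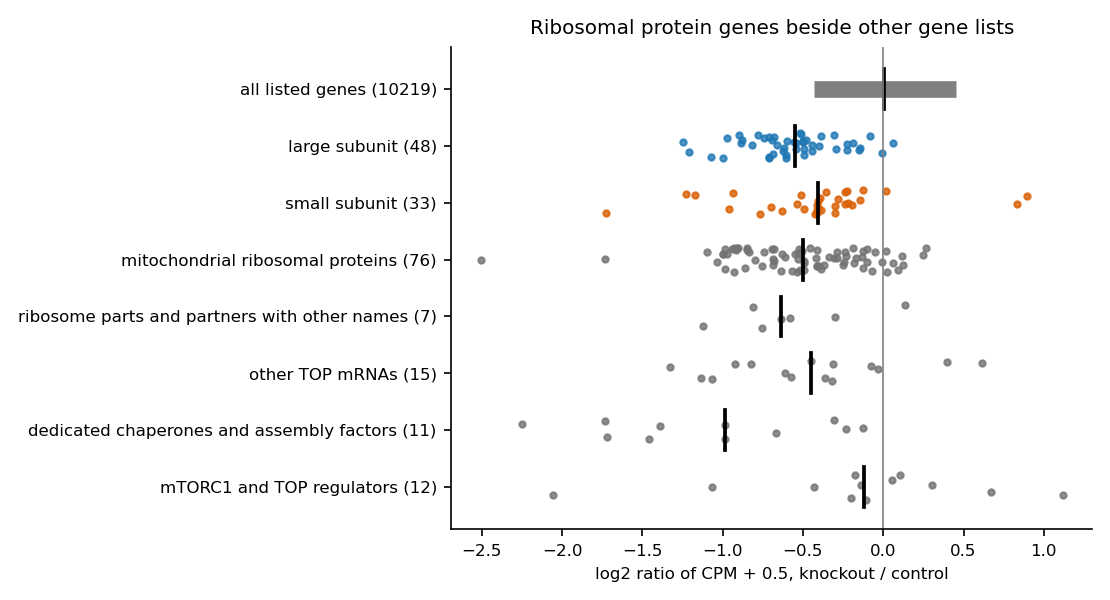
Log2 ratio of knockout over control for the genes of each list (1 point per gene, number of genes in brackets, black bar at the median); for all listed genes the grey bar spans the quartiles. The medians are -0.55 and -0.40 for the subunits, -0.50 for mitochondrial ribosomal proteins and -0.99 for chaperones and assembly factors, against 0.005 for all listed genes.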

How the data were processed

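RNA was extracted with Trizol and sequenced from an Illumina TruSeq library per genotype as 150 bp paired reads, per the labels' protocols. The submitters' processing notes name TopHat2 2.0.12, HTSeq 0.6.1, Bowtie2 2.2.3, edgeR and the build mm8. For annotation, strand and reads shared between genes, the setting was not given in the sources used here. Deposited values are raw whole-number counts per gene. The authors' mean and signed ratio of these counts, which are scores here, their edgeR log2 fold change and log2 CPM, likelihood ratio score and p-value, per the file headers, were not used. The table lists no gene with a mean of the 2 counts under 50.5.

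Counts were scaled to CPM by TMM (edgeR 4.0.16, R 4.3.3). A log2 ratio is that of knockout over control on CPM + 0.5; a fold is the ratio of scaled counts, with its exact conditional binomial 95% interval (scipy 1.17.1), which covers counting error only. PCR reads are not independent molecules. Scaling and intervals were tested on simulated Poisson counts in which 200 genes were changed. Far more genes differ between these libraries, so the simulation does not show how well the scaling holds here. With 1 library per genotype no test was possible, and genes were counted by size. Described in depth are the 6 lowest, 6 highest and most counted members and the paralog pairs, with up to 3 genes at each end of other lists. Some members that this rule selects are not reported here by name. Members and lists were chosen with earlier results of these data known. Lengths and GC content came from 1 GENCODE M21 transcript per gene (10200 genes), corrections from mgcv 1.9.3, and promoter windows from RefSeq on GRCm38.p6, which is not the build in the notes. Copies were paired with parents by symbol. Tested alternatives included DESeq2 1.42.0 size factors. Symbols turned into dates (14) were restored by Ensembl ID. Of 88 RefSeq genes matching the symbol rule, 7, among them Rpl24, are not listed and were not analysed here.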

Additional observations from a re-analysis of the deposited data

How the results depend on the processing

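No paired analysis was possible because each genotype has 1 library; leaving out a replicate was likewise not possible. Of 48 alternative values of the 4 medians (members, large, small and their difference), all 48 were below 0. Not all of these could have come out otherwise. Scaling a whole library moves all members nearly alike, so it could not alter the difference between subunits. The filter of at least 100 counts left out no member, so its medians equal those reported. Scaling on pan T cell markers gave medians of -0.86 (members), -0.90 (large) and -0.76 (small), with 25 of 81 members at least 2-fold lower, against 1735 of 10219 listed genes (17.0%) under that scaling. The length and GC correction gave -0.36, -0.41 and -0.26 and 2 members at least 2-fold higher, against 10.9% of the genes corrected; fitted without the members it gave -0.39, -0.43 and -0.28. With level added it gave -0.20, -0.30 and -0.11, with 2 members at least 2-fold lower and 2 higher, against 8.47% and 10.3% of the genes corrected. At 1.5-fold, 31 members were lower and 2 higher. The knockout and control shares of counts, 5.25% and 7.04%, became 5.38% and 7.16% among genes of at least 100 counts in both libraries. They were 5.21% and 6.95% without paralogs, 5.60% and 7.46% without rRNA rows, and 5.08% and 6.95% without Rps27 and Rps27rt. Scaling leaves these shares unaltered. The corrections fitted without the members, the rRNA exclusion and leaving out Rps27 and Rps27rt were chosen after seeing the data. Why the medians moved was not tested beyond these settings. Among other members, Rpl13a, Rpl9 and Rps29 changed sign with the length and GC correction. Depth limits Rpl23a most, with 118 knockout counts, and its count also depends on how reads shared with its copy were counted.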
